A study of Ovis aries with 16 samples.

Results

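The miR-26 family was represented by 2 of the 271 miRNAs listed for the sheep testis, oar-miR-26a and oar-miR-26b. They were taken as the known miRNAs whose name begins with oar-miR-26 followed by a letter, and both passed the filter on low values that left 244 miRNAs for testing. The libraries came from 16 sexually mature Merino males. The 8 well-fed males were offered feed for a body mass gain of 10% over 65 days, and the 8 underfed males for a loss of 10% over the same time, with the feed of each male adjusted weekly. Each library was made from whole tissue of the right testis of 1 male, so it held RNA of germ, Sertoli, Leydig, peritubular and blood cells together. In such tissue, fewer cells of a type and less RNA per cell cannot be told apart. The family was taken up with the diet difference of oar-miR-26a already known, so the diet comparison of the members is a description with standard errors. No p-value of a member in this contrast is given. Where the text states whether a member was called in it, this shows how values move with the processing and is no support for a difference.

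MicroRNAs guide Argonaute proteins to mRNAs that pair with their seed, the short stretch near the 5′ end, and lower the output of those mRNAs. The miR-26 miRNAs share one seed across vertebrates and are cut from introns of the CTDSP genes, which encode phosphatases acting on the tail of RNA polymerase II. They are known as abundant miRNAs of differentiated tissues with EZH2, a histone methyltransferase, among their established targets. In the RefSeq gene table for the ARS-UI_Ramb_v3.0 assembly, MIR26A lay within CTDSP2 and MIR26B within CTDSP1, and these were the 2 MIR26 genes of that table. Mammals can carry more than one gene for miR-26a, and its mature reads cannot be assigned to a locus.

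CPM was the number of reads of a miRNA per 1000000 miRNA reads of the library, and is not per base, though mature miRNAs are close to each other in length. The number of miRNA reads behind these values ranged from 17163 to 503916 in well-fed and from 27797 to 1058985 in underfed males. Well-fed male 5 and underfed males 6 and 8 had fewer than 100000 reads, and the other 13 libraries had more. Underfed male 1 stood apart from its diet group. Its ratio of miRNA to piRNA reads was 0.517, against 1.40 to 3.13 in the other underfed males and 0.355 to 0.908 in well-fed males. The predicted miRNAs carry the numbers given by the authors with the prefix candidate-miR, and the homologues named for them are those given by the study.

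Expression of oar-miR-26a was high in every male. In well-fed males 1 to 8 it was 53492, 56795, 60391, 58209, 67121, 53506, 40592 and 47270 CPM. In underfed males 1 to 8 it was 75673, 73286, 67245, 75952, 64785, 96719, 75923 and 61668 CPM. Of the underfed males, 6 of 8 lay above every well-fed male, and the groups overlapped through well-fed male 5 and underfed males 5 and 8. Well-fed males averaged 54672 ± 8111 CPM (SD, n = 8). Underfed males averaged 73906 ± 10754 CPM (SD, n = 8), 1.35 times as much. On the log2 scale of the CPM as deposited, the difference was 0.44 with a standard error of 0.11. The coefficient of variation was 14.8% over the well-fed and 14.6% over the underfed males. In the 13 libraries above 100000 reads, the well-fed males had 40592 to 60391 CPM and the underfed males 64785 to 75952 CPM without overlap. This held for 1 of 244 miRNAs (0.41%), oar-miR-26a itself, whose difference was known when it was chosen. Well-fed male 5, the only well-fed male above any underfed male, is not among these libraries. Leaving out this male fixed the outcome, so nothing is read from the separation. Here and elsewhere, only miRNAs with every underfed above every well-fed male are counted as not overlapping.

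The less abundant member in every male was oar-miR-26b. In well-fed males 1 to 8 it was 5476, 5761, 5344, 4609, 5652, 6136, 5959 and 4811 CPM. In underfed males 1 to 8 it was 3326, 6751, 7165, 9493, 5986, 6314, 7273 and 9132 CPM. Underfed male 1 had the lowest value of all 16 libraries, while 6 underfed males lay above every well-fed male. Well-fed males averaged 5469 ± 533 CPM (SD, n = 8). Underfed males averaged 6930 ± 1923 CPM (SD, n = 8), 1.27 times as much, and the log2 difference was 0.29 with a standard error of 0.17. The coefficient of variation was 9.75% over the well-fed and 27.7% over the underfed males. Without underfed male 1, the underfed mean was 7445 ± 1356 CPM (SD, n = 7), the ratio 1.36 and the log2 difference 0.43 with a standard error of 0.11.

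**Figure D1:**
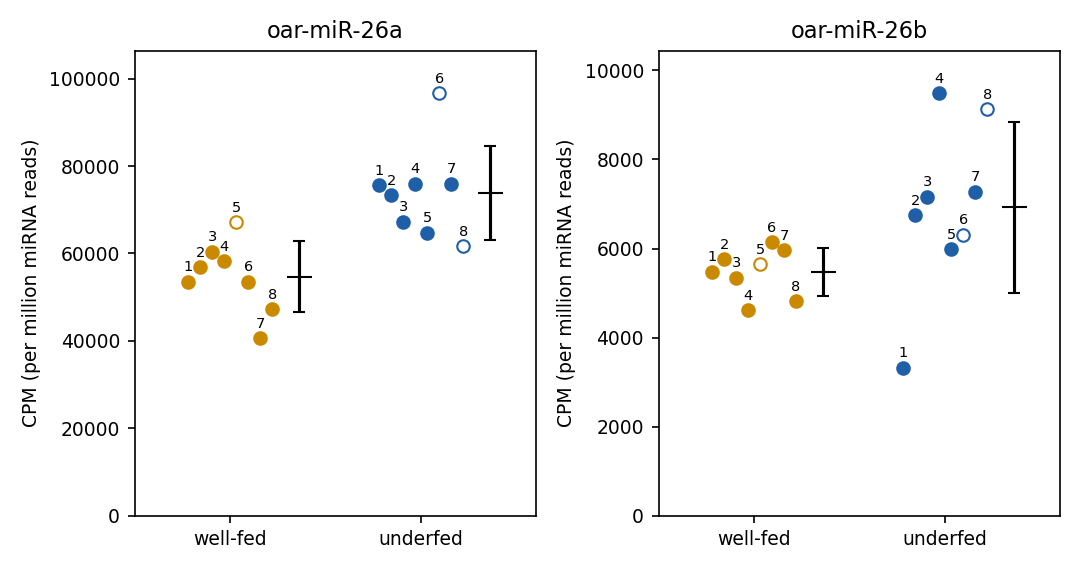
Expression of oar-miR-26a (left) and oar-miR-26b (right) in CPM (reads per 1000000 miRNA reads) in each of 8 well-fed and 8 underfed males. Numbers name the males, open circles are the libraries below 100000 miRNA reads, and the bar beside each group gives the mean ± SD. For oar-miR-26a 6 of 8 underfed males lie above every well-fed male, and for oar-miR-26b underfed male 1 lies below all others at 3326 CPM.

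Counting error was small against the spread between males for oar-miR-26a. In the shallowest library, well-fed male 5, it was counted by 1152 reads, or 6.71% of the miRNA reads with a Wilson 95% interval of 6.35% to 7.10%. In underfed male 6 it was counted by 2688.5 reads, or 9.67% (Wilson 95% interval 9.33% to 10.0%), so the interval lay above the share in any other library. For oar-miR-26b the shallow libraries were less exact. It was counted by 97 reads in well-fed male 5, or 0.565% (Wilson 95% interval 0.464% to 0.689%), an interval that held the values of all other well-fed males except male 4. In underfed male 1, the lowest value rested on 496 reads, or 0.333% (Wilson 95% interval 0.305% to 0.363%), and was below the share in every other library by more than counting error. These intervals cover counting error only, since PCR reads are not independent molecules.

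The reads of the members were not counted fully apart. Both oar-miR-26a and oar-miR-26b had read numbers ending in 0.5 in the same 9 libraries, both were whole in the other 7, and their sum was whole in all 16. Read numbers ending in 0.5 occurred for 57 miRNAs, and none of the other 55 had this pattern over the libraries. The closest of them matched it in 11 of 16. A read divided equally between both members would leave such values, and the number of reads so divided cannot be told from them. The levels of the members, and most of all that of the less abundant oar-miR-26b, are uncertain to that extent. Their sum is not affected by reads divided between the members.

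The members together held between 4.66% and 7.28% of the miRNA reads in well-fed males (6.01% ± 0.81, SD, n = 8) and between 7.08% and 10.3% in underfed males (8.08% ± 1.05, SD, n = 8). The difference was 2.07 percentage points with a standard error of 0.47. In the 13 libraries above 100000 reads the groups did not overlap, with 4.66% to 6.57% in well-fed and 7.08% to 8.54% in underfed males. Most of this share is oar-miR-26a, so this is largely the same measurement as the separation of that member in these libraries. Of single miRNAs, 1 of 244 (0.41%) did not overlap there, and it was oar-miR-26a. In this share too, well-fed male 5 was the only well-fed male above any underfed male. Leaving out this male fixed the outcome, so nothing is read from the separation. In order of CPM within a library, oar-miR-26a was the third most abundant miRNA in 14 of 16 males, the fourth in well-fed male 1 and the fifth in well-fed male 8. The order of oar-miR-26b, where 1 is the most abundant of 271, was 26 to 32 in well-fed males (median 29.5). In underfed males it was 15 to 38 (median 22), with underfed male 8 at 15 and underfed male 1 at 38.

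CPM depends on all the other miRNAs of a library, so the diet comparison was also made after scaling with TMM factors, which set the bulk of the miRNAs equal between libraries. With this scaling 9 of 244 miRNAs (3.69%) were called higher in underfed males at an FDR under 0.05, 6 of 244 (2.46%) lower and 15 of 244 (6.15%) in either direction. The 2 members were among the 9, a count that the choice of the family from this contrast bears on, so it is no support for a difference. An added threshold required the ratio of mean CPM as deposited to be under 0.67 or above 1.5. With it neither member was called, against 8 of 244 miRNAs (3.28%). Ratios of mean CPM as deposited were 1.35 for oar-miR-26a and 1.27 for oar-miR-26b. In TMM-scaled CPM, to which the threshold was not applied, the ratios of means were 1.92 and 1.81. The log2 fold change (underfed/well-fed) on the log2(CPM + 1) scale was 0.91 with a standard error of 0.18 for oar-miR-26a and 0.76 with a standard error of 0.23 for oar-miR-26b. For oar-miR-26b the FDR was not under 0.05 in CPM as deposited, with median-of-ratios factors, with scaling to the miRNAs outside the 10 most abundant, in the 13 deeper libraries, or in 13 of 16 fits with 1 male left out. Among the 244 miRNAs, in order from the highest log2 fold change, these were the 13th and the 26th. The median of all 244 was -0.08.

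After TMM scaling the lowest, median and highest values of oar-miR-26a were 37461, 46142 and 55497 CPM in well-fed and 60063, 89185 and 124159 CPM in underfed males. The groups no longer overlapped, as was the case for 3 of 244 miRNAs (1.23%). For oar-miR-26b they were 3827, 4490 and 5590 CPM in well-fed and 2640, 9084 and 11650 CPM in underfed males. Underfed male 1 lay below and the other 7 underfed males above every well-fed male. Without underfed male 1, the remaining underfed males had at least 6969 CPM of oar-miR-26b. For neither member did the groups then overlap, as for 8 of 244 miRNAs (3.28%). Underfed male 1 alone made the groups overlap for oar-miR-26b, so leaving it out fixed this outcome and nothing is read from it. The log2 fold change without this male was 0.99 for both members, and 45 miRNAs were called in place of 15. Well-fed males had TMM factors of 1.08 to 1.39, and underfed males of 0.698 to 1.26, with underfed male 1 at 1.26 and underfed male 8 at 1.00.

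The size of the difference moved with the scaling. A library factor shifts all miRNAs of that library nearly alike on the log2 scale, so the position against other miRNAs could move little. Without a factor between libraries, the fitted log2 fold change was 0.44 for oar-miR-26a and 0.29 for oar-miR-26b, while the median of all tested miRNAs was -0.51. In that fit 1 of 244 miRNAs (0.41%) was called higher and 38 were called lower, and the 1 called higher was oar-miR-26a, from which nothing is read, since its difference in this contrast was known when it was chosen. With median-of-ratios factors the values were 0.77 and 0.62 (median of all -0.19), with 6 miRNAs called higher and 10 lower. With scaling to the miRNAs outside the 10 most abundant they were 0.72 and 0.57 (median of all -0.27), with 5 called higher and 17 lower. With miRNAs and piRNAs scaled together they were 1.87 and 1.72 (median of all 0.81), with 85 called higher and 0 lower at an FDR under 0.05 in limma and 116 at an unadjusted p under 0.05 in either direction. Relative to the median of all tested miRNAs, oar-miR-26a was higher in underfed males by 0.94 to 1.05 and oar-miR-26b by 0.80 to 0.90 on the log2 scale in these 5 scalings. As the scaling nearly fixes this distance, its steadiness is no support for a difference.

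**Figure D2:**
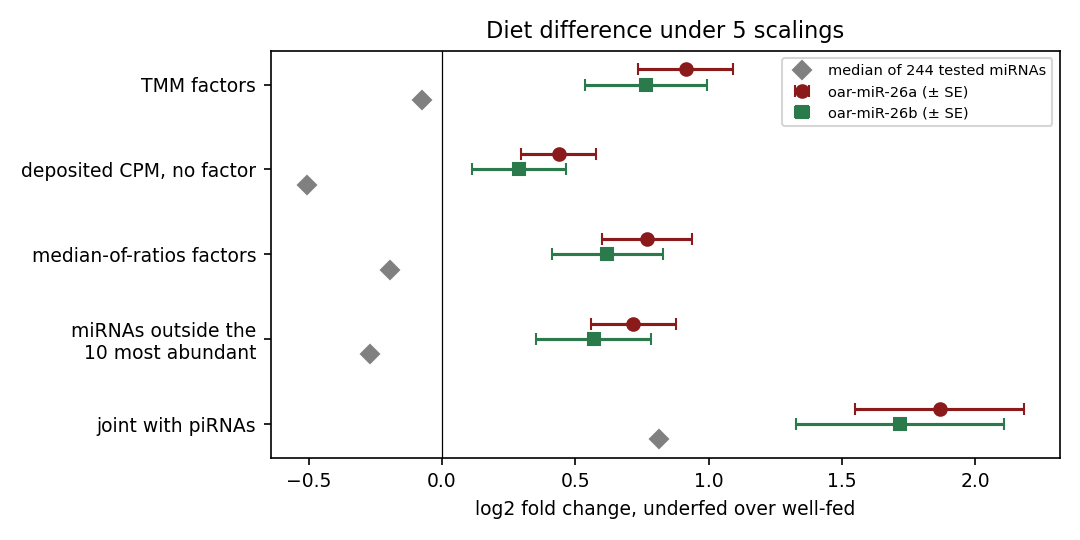
Log2 fold change (underfed over well-fed) of oar-miR-26a and oar-miR-26b, with standard errors from limma, and the median of the 244 tested miRNAs under 5 scalings. Both members lie above 0 and above the median under every scaling shown, from 0.44 and 0.29 in CPM as deposited to 1.87 and 1.72 when scaled with piRNAs. Scaling shifts all miRNAs nearly alike, so the distance to the median is nearly fixed.

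As reads per 1000000 miRNA and piRNA reads together, with no further factor, oar-miR-26a ranged from 12379 to 26969 (median 20386) in well-fed and from 25801 to 58564 (median 49078) in underfed males, a ratio of means of 2.29. On the same scale oar-miR-26b ranged from 1260 to 2836 (median 2003) in well-fed and from 1134 to 6896 (median 4713) in underfed males, a ratio of 2.21. The lowest underfed value of both members was that of underfed male 1, and the groups overlapped for both. On this scale the groups did not overlap for 4 of 244 miRNAs (1.64%) in the 16 libraries. In the 13 deeper libraries this held for 12 of 244 (4.92%), oar-miR-26a among them and oar-miR-26b not. Without underfed male 1 the groups did not overlap for either member, which then held for 14 of 244 miRNAs (5.74%). For both members this was the only underfed male not above every well-fed male, so leaving it out fixed this outcome and nothing is read from it. For oar-miR-26a only well-fed male 5, at 26969, lay above underfed male 1. The 13 deeper libraries leave out well-fed male 5, so nothing is read from the separation of oar-miR-26a there either.

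The ratio of oar-miR-26a to oar-miR-26b within a library is free of the scaling between libraries. It ranged from 6.81 to 12.6 in well-fed males (median 9.84) and from 6.75 to 22.8 in underfed males (median 10.6). The highest values were 22.8 in underfed male 1 and 15.3 in underfed male 6, and the other underfed males lay within the range of the well-fed males or just below it. The log2 ratio differed between diets by 0.15 with a standard error of 0.22, less than the spread between males. Without underfed male 1 the difference was -0.0012 with a standard error of 0.17. Both values were within 1 standard error of 0.

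**Figure D3:**
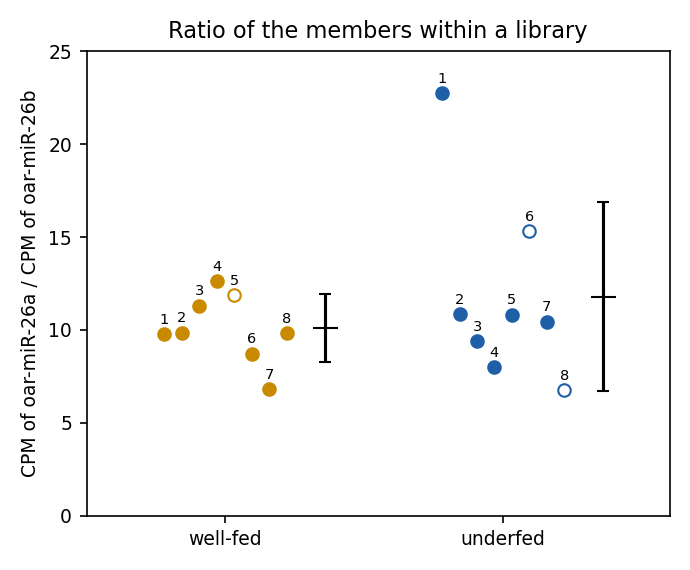
Ratio of oar-miR-26a CPM to oar-miR-26b CPM within each library for 8 well-fed and 8 underfed males. Numbers name the males, open circles are the libraries below 100000 miRNA reads, and bars give the mean ± SD. The diets overlap, and underfed male 1 lies apart at 22.8.

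Against the other 9 of the 10 most abundant miRNAs, oar-miR-26a was the second by log2 fold change after oar-miR-10b, a HOX cluster miRNA and the most abundant one. The log2 ratio of oar-miR-26a to oar-miR-10b differed between diets by -0.0033 (standard error 0.23). The ratio to oar-miR-143, a miRNA of smooth muscle, was higher in underfed males by 0.39 (standard error 0.14). The ratios to oar-let-7f and oar-let-7a, of the let-7 family of differentiated cells, were higher by 0.47 (standard error 0.13) and 0.53 (standard error 0.21). For oar-miR-148a the difference was 0.41 with a standard error of 0.25. The ratios to oar-miR-191, candidate-miR-121 (homologue of miR-92a) and oar-miR-22-3p were higher by 0.90, 1.12 and 1.14, and that to candidate-miR-31 (homologue of miR-34c, a miRNA of meiotic and later germ cells) by 1.82 (standard error 0.34). The log2 ratio was thus higher in underfed males for 8 of 9 miRNAs, and by more than 2 standard errors for 7 of 9. All the ratios share oar-miR-26a, whose diet difference was known when it was chosen, so these counts are no support for a difference. A ratio can also be higher through a lower denominator. Among the 10 most abundant miRNAs, oar-miR-26a had the fourth lowest coefficient of variation of CPM in well-fed and the second lowest in underfed males.

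**Figure D4:**
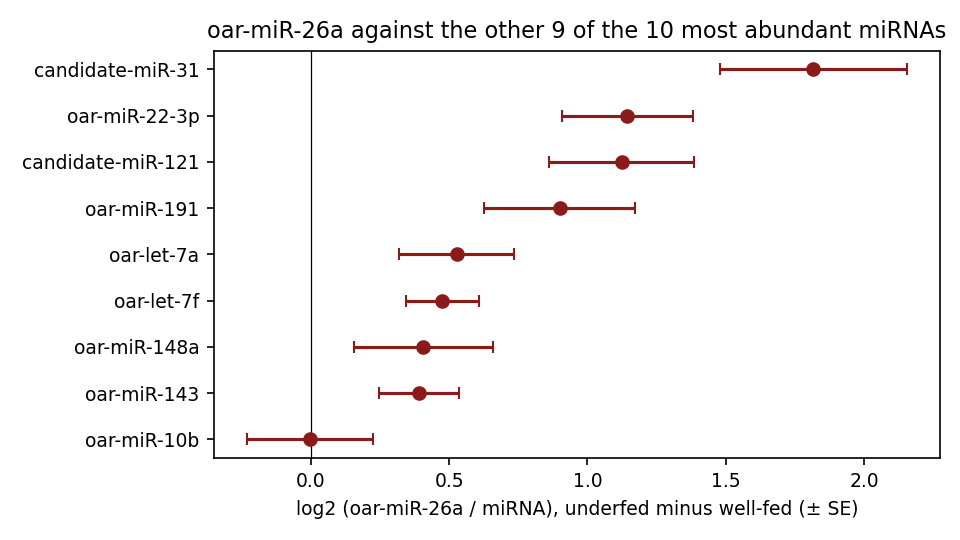
Difference between diets (underfed minus well-fed) in the log2 ratio of oar-miR-26a to each of the other 9 of the 10 most abundant miRNAs, with standard errors over 16 males. The difference is 1.82 for candidate-miR-31, -0.0033 for oar-miR-10b, and between these for the other 7.

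Germ cell markers, taken as a sum made up mostly of candidate-miR-31, moved with diet beside the family. The summed CPM of the 4 miRNAs of the miR-34 and miR-449a group, all 4 listed and 1 of them at 0 in some libraries, ranged from 47551 to 71118 in well-fed males (median 64104) and from 10999 to 58195 in underfed males (median 21528). Underfed males 1 and 8 had sums of 44649 and 58195, and the other underfed males 10999 to 21752. Underfed males 1 and 8 also had the lowest TMM-scaled values of oar-miR-26a among the underfed, 60063 and 61408 CPM. In TMM-scaled CPM underfed male 1 had the lowest value. In CPM as deposited it had 75673 CPM, above the underfed median of 74480, and underfed male 8 had the lowest value. For oar-miR-26b, underfed male 1 had the lowest value on both scales, but underfed male 8 did not lie low. Underfed male 8 had 9093 CPM of oar-miR-26b TMM-scaled, just above the underfed median of 9084. As deposited it had 9132 CPM, below underfed male 4 only among the underfed. In well-fed males candidate-miR-31 averaged 44970 of the 61208 CPM of the sum, and in underfed males 19776 of 27241 CPM. Of the 4 markers, 2 were called lower and 0 higher in underfed males in the limma fit, where 2.46% of the 244 miRNAs were called lower and 3.69% higher. The log2 fold changes called were -0.90 for candidate-miR-31 and -0.78 for candidate-miR-161. Those not called were -0.80 for candidate-miR-30 and -0.06 (standard error 0.89) for candidate-miR-162. Without underfed male 8 the log2 fold change was 0.98 for oar-miR-26a and 0.73 for oar-miR-26b, and 27 miRNAs were called. The 2 markers of smooth muscle and peritubular cells, oar-miR-143 and candidate-miR-90 (homologue of miR-145), both detected in every library, summed to 153985 to 210989 CPM in well-fed and 138660 to 215633 CPM in underfed males. These ranges are of CPM as deposited. In the limma fit after TMM scaling both were higher in underfed males, by 0.52 (standard error 0.20) and 0.62 (standard error 0.27) on the log2 scale, and neither was called. The 4 markers of blood cells summed to 3514 to 9386 CPM and 2854 to 9375 CPM, and the striated muscle markers listed, 2 of 3, to at most 58.2 CPM. The fitted log2 fold changes of the 4 blood cell markers were -0.20 to 0.26, and none was called. The part of these cells in the diet difference of the family was not tested.

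Within a diet no relation between the members was detected in CPM. Pearson's r between log2 CPM of oar-miR-26a and oar-miR-26b was -0.13 in well-fed males (exact permutation p = 0.789, two-sided, n = 8) with Spearman's rho of -0.24 (exact permutation p = 0.582). In underfed males r was -0.22 (exact permutation p = 0.513, n = 8) and rho 0.024 (exact permutation p = 0.977). Without the 2 males farthest from the median of oar-miR-26a, r was 0.12 and -0.04. Of the 10 relations computed, which also set each member against the number of miRNA reads and the ratio of miRNA to piRNA reads, none passed after Benjamini-Hochberg adjustment. The lowest adjusted p was 0.317 for r and 0.504 for rho. The lowest for r belonged to oar-miR-26a against log2 miRNA reads in well-fed males (r = -0.66, exact permutation p = 0.033, and 0.12 without the 2 males farthest from the median) and to oar-miR-26b against the log2 ratio of miRNA to piRNA reads in underfed males (r = 0.79, exact permutation p = 0.063, and 0.37 without 2 males).

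The miRNAs whose expression was most like that of the members over the 16 libraries were found from log2 TMM-scaled CPM after the mean of each diet was subtracted. The libraries share their TMM factors between miRNAs, so these correlations are descriptions. For oar-miR-26b the nearest of 243 miRNAs was candidate-miR-144 (homologue of miR-98, of the let-7 family), with r = 0.93 in 16 libraries, 0.97 in the 13 deeper libraries and 0.77 without underfed male 1, and it was the first in each. It was followed by candidate-miR-22 (homologue of miR-6119-5p, r = 0.90), candidate-miR-117 (homologue of miR-135, 0.89), oar-miR-374b (0.88) and oar-miR-21 (0.88). Without underfed male 1 these were 0.58, 0.66, 0.41 and 0.68. For oar-miR-26a the nearest were candidate-miR-95 (homologue of miR-141, r = 0.74), oar-let-7f (0.73), candidate-miR-55 (homologue of miR-130a, 0.71), candidate-miR-144 (0.67) and candidate-miR-39 (homologue of miR-215, 0.64). In the 13 deeper libraries these were 0.48, 0.79, 0.71, 0.77 and 0.20. The correlation of the members with each other was 0.51, or 0.72 in the deeper libraries and 0.21 without underfed male 1. In order of likeness to oar-miR-26a, oar-miR-26b was at place 18 in 16 libraries, 3 in the deeper libraries and 60 without underfed male 1. In order of likeness to oar-miR-26b, oar-miR-26a was at places 43, 39 and 101. The order thus rested on which libraries were used.

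The study placed oar-miR-26a beside oar-miR-10b, oar-miR-99a, candidate-miR-31 and candidate-miR-144 in its working model. These 5 miRNAs were chosen on the same samples, so their direction is no independent evidence. In the fit on TMM-scaled CPM, where 6.15% of the miRNAs were called, 3 of the 5 were called higher in underfed males, 1 was called lower, and their median log2 fold change was 0.91 against -0.08 over all 244. The values were 1.22 for oar-miR-99a, 0.92 for oar-miR-10b, 0.65 for candidate-miR-144, which was not called, and -0.90 for candidate-miR-31.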

How the data were processed

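Small RNA libraries of testis from 16 males (TruSeq, 1 library per male) were demultiplexed with CASAVA 1.8. The authors removed reads of other non-coding RNAs, counted known (miRBase) and predicted (miRDeep2, OAR3.1) miRNAs, and used edgeR to test them. In the deposited CPM the authors divided each class, miRNAs or piRNAs, by the total of that class. Low values were multiples of 1 read, and reads were taken from them. Between 93.2% and 97.6% of low miRNA values were whole (tolerance 0.02), and 99.3% to 100% were multiples of 0.5 reads. With a floor of 3 reads, shares from 0.000283% to 0.0175% could be shown, depending on the library.

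As the unit was CPM, log2(CPM + 1) was compared with limma 3.58.1 (R 4.3.3, empirical Bayes trend) after TMM scaling by an own implementation, for miRNAs that exceeded 5 CPM in 8 or more of the 16 libraries. P-values were adjusted over all miRNAs tested. The script was tested on simulated data. Single values were compared with Python 3.11.15 and scipy 1.17.1, and correlations by exact permutation over 40320 pairings. Diets and numbers of males came from the labels. The numbers are not described as pairs, so they were not taken as such. Same-numbered males deviated from their diet means with correlations of -0.18 to 0.28 (3 of 8 over 0.1), values that cannot by themselves settle whether males were paired.

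The members and lists were chosen with earlier results of these data known. Values are given for the members, the 10 most abundant miRNAs, the 5 miRNAs most like each member, the working model of the study and the cell markers. The seed of the members was not searched for among other miRNAs, as mature sequences were not used here. Alternatives were other scalings, filters, pseudocounts, weights, voom, a read number covariate, the replicate block, the deeper libraries and each male left out. Likeness without underfed male 1 and in the deeper libraries was added after seeing the data.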

Additional observations from a re-analysis of the deposited data

Results flagged for a closer look

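Underfed male 6 stood apart from the other underfed males in oar-miR-26a, with 96719 CPM against 75952 CPM in the next male, a gap of 0.592 of the range of the group. It also stood apart in the share of miRNA reads held by both members, with 10.3% against 8.54% in the next male, a gap of 0.545 of the range, and this value is largely the same measurement. Both gaps exceeded Dixon's 95% critical value for groups of 8. Of 12 groups of values examined 2 were marked, where chance marks about 1 in 20. This library was among the shallow ones with 27797 miRNA reads, and its oar-miR-26a count had a Wilson 95% interval of 9.33% to 10.0% of them. Without this male the log2 fold change of oar-miR-26a was 0.79.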

How the results depend on the processing

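All these fits use the contrast from which the family was taken up, so they show how the values move and are no support for a difference. The log2 fold change of oar-miR-26a was 0.44 to 1.87 in 13 alternatives and 0.79 to 0.99 in 16 fits with 1 male left out. The FDR of oar-miR-26b was no longer under 0.05 with CPM as deposited (0.29), median-of-ratios factors (0.62), scaling outside the 10 most abundant miRNAs (0.57) and the 13 deeper libraries (0.72, log2 fold changes in brackets). With 1 male left out its log2 fold change ranged from 0.62 to 0.99, and its FDR was under 0.05 in 3 of 16 fits, those without well-fed male 7 or underfed male 1 or 6. The number of miRNAs called, 15 as reported, was 39 without TMM factors, 85 with miRNAs and piRNAs scaled together, 98 with sample weights, 47 with voom, 31 with the number of miRNA reads as a covariate and 42 in the 13 deeper libraries. It ranged from 4 (without well-fed male 2 or 8) to 45 (without underfed male 1) with 1 male left out. The cause was not tested. With the replicate block, 15 miRNAs were called and the log2 fold changes were 0.91 and 0.76, and 2 of 8 males correlated best with their own number. The share of both members differed by 2.07 percentage points with the replicate block, by 1.75 to 2.25 with 1 male left out, and by 8.08 when taken of the reads outside the other 9 most abundant miRNAs, which have a smaller total. The log2 ratio of the members differed by -0.0012 to 0.25 with 1 male left out and by 0.15 with the replicate block. The correlation of the members within a diet changed sign with TMM-scaled CPM, to 0.21 in well-fed (exact permutation p = 0.594, n = 8) and 0.58 in underfed males (exact permutation p = 0.142, n = 8). The quasi-likelihood test on counts was not run, as not all miRNA values came out as whole reads. Depth limited oar-miR-26b most, with 97 reads in well-fed male 5.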
